A study of Sus scrofa with 2 samples.

Results

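Relaxation of a muscle fibre depends on calcium pumps in the membrane of the sarcoplasmic reticulum, the internal calcium store. The 4 genes described here are ATP2A1 and ATP2A2, which encode these pumps, SLN, which encodes sarcolipin, and CASQ1, which encodes calsequestrin 1. They were taken by gene symbol and are 4 of the 31780 genes in the feature list. All 4 were found in both libraries, and all 4 passed the filter on low counts.

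The data are UMI counts (unique molecular identifiers, each marking a captured RNA molecule) from spots of a Visium slide, an assay in which barcoded spots bind polyadenylated RNA of a tissue section lying on them. There was 1 group: untreated psoas major, a loin muscle, of female Landrace pigs, with 1 cryosection of 15 µm per library (section 1 and section 2), from 2 pigs in all. Age was not stated in the sources used here, and both sections lay on the same slide. Spots of different myosin make-up were therefore compared inside each section, and the section is the unit of replication.

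ATP-driven pumps return calcium from the cytosol to the store after each contraction. The product of ATP2A1 is the pump of fast fibres, and that of ATP2A2 is the pump of slow fibres and of the heart, with a second splice form in most other cells. Sarcolipin is a short membrane peptide that binds the pump, and it lowers the calcium moved per ATP so that more of the energy leaves as heat. Calsequestrin 1 binds calcium inside the store next to the release channels.

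Coordinates are those of the RefSeq annotation of Sscrofa11.1, the assembly the counts were made on. ATP2A1 (ENSSSCG00000007805) lies on chromosome 3 at 18545064 to 18568312 on the plus strand, with 22 coding exons. ATP2A2 (ENSSSCG00000034386) lies on chromosome 14 at 31674659 to 31744981 on the plus strand, with 21 coding exons in its longer model. SLN (ENSSSCG00000029651) lies on chromosome 9 at 36232955 to 36242405 on the minus strand, and CASQ1 (ENSSSCG00000006390) on chromosome 4 at 90276752 to 90288990 on the minus strand, with 11 coding exons. Counts were per gene, so splice forms of ATP2A2 are not separated.

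The coding part of SLN is shown because it is whole and short: 1 exon of 96 bases at chr9:36233741-36233836 (minus strand), with the start and stop codons in capitals.
SLN coding: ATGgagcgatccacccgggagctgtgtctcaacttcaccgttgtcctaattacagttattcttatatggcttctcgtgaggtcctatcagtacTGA
The 200 bases before the annotated start are shown for ATP2A2, whose RNA rose with the slow myosin share, and for ATP2A1 and SLN, the members that fell most. They were read from RefSeq's Sscrofa11.1 at chr9:36242406-36242605 (minus strand) for SLN, chr3:18544864-18545063 (plus strand) for ATP2A1 and chr14:31674459-31674658 (plus strand) for ATP2A2. Capitals mark matches, on either strand, to CANNTG (the E-box bound by myogenic factors) or to the box of TATA type, spelled here as TATAAA.
SLN upstream: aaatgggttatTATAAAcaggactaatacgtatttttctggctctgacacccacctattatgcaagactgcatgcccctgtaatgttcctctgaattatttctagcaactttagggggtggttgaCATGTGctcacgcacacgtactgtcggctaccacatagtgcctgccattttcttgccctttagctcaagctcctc
ATP2A1 upstream: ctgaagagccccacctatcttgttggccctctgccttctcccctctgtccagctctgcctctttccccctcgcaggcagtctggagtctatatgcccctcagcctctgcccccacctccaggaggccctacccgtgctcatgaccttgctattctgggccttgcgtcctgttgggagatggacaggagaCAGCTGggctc
ATP2A2 upstream: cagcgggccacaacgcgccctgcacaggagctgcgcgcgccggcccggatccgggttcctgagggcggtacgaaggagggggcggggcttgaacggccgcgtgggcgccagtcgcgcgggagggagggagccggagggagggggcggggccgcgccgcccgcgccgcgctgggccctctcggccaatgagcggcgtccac
SLN had 1 E-box, 75 bases before the start, and 1 TATA box, 189 bases before it. ATP2A1 had 1 E-box, 11 bases before the start, and ATP2A2 held neither motif. None of the 3 windows held the M-CAT motif (here the letters CATTCC), a MEF2 box or a CArG box, and no match overlapped another. A match describes these letters and is not a site in use. Of 19556 protein-coding genes with a window of this length, 53.3% held an E-box, 7.69% a TATA box, 7.99% an M-CAT motif, 1.88% a MEF2 box and 0.997% a CArG box. G and C made up 45.0% of the SLN window, 61.5% of that of ATP2A1 and 79.5% of that of ATP2A2. RefSeq gives ATP2A1 a further start 2929 bases downstream and ATP2A2 one 614 bases downstream, so these windows are 1 choice of start.

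After filtering, 2429 spots of section 1 and 2878 of section 2 were kept, with 3600270 and 5371312 UMIs and medians of 929 and 1350.5 UMIs per spot. A spot can hold parts of several fibres and the tissue between them, and fewer fibres of a type cannot be told apart from less RNA per fibre. The sections share 2104 barcodes, which are positions of the slide and not shared cells. MYH7 encodes the slow myosin heavy chain, and MYH2 and MYH4 those of type IIA and IIB fibres. The authors name type IIX, with MYH1, as a further main fibre type, and left MYH1 unquantified because of annotation errors. Neither myosin share used here includes MYH1, so IIX fibres are not placed on either axis. Of all UMIs of MYH7, MYH2 and MYH4, 76.8% came from MYH7 in section 1 and 72.6% in section 2. Spots with at least 5 such UMIs were called MYH7-dominant at an MYH7 share of 0.75 or more, fast at 0.5 or less, and mixed between. There were 731 and 821 MYH7-dominant, 221 and 291 mixed and 897 and 1324 fast spots in sections 1 and 2. All 7 slow fibre markers tested were higher and all 7 fast fibre markers lower in MYH7-dominant spots.

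SLN contributed 17769 UMIs in section 1 and 29272 in section 2, CASQ1 7916 and 12188, ATP2A1 5946 and 10983, and ATP2A2 5912 and 8532. An SLN UMI was seen in 93.4% and 96.8% of kept spots and an ATP2A2 UMI in 49.2% and 53.0%. Capture can differ between transcripts, so ratios between the genes are compared across spots and not read as ratios of molecules.

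The pumps exchanged places along the myosin gradient. The level of ATP2A1, in CPM (UMIs of the gene per 1000000 UMIs of those spots), was 3022 in fast spots of section 1 and 3452 in those of section 2, against 857.2 and 1047 in MYH7-dominant spots. The fast value was the higher in each section. The mean was 3237 ± 304 in fast and 952.1 ± 134 in MYH7-dominant spots (SD, n = 2 sections). The fitted log2 fold change of MYH7-dominant against fast spots was -1.76 (SE 0.052, adjusted p = 3.48e-112, edgeR quasi-likelihood test), a level 3.39-fold lower. ATP2A2 moved the other way, from 474.6 and 450.3 CPM in fast spots to 2296 and 2349 CPM in MYH7-dominant spots. The sections differed by far less than the classes, and the fitted log2 fold change was 2.37 (SE 0.059, adjusted p = 3.75e-134, edgeR), a level 5.18-fold higher. Mixed spots lay between, with 2085 and 2414 CPM of ATP2A1 and 1282 and 1372 CPM of ATP2A2.

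SLN followed the fast pump in direction. Its level was 8137 and 8407 CPM in fast, 6092 and 6156 CPM in mixed and 3077 and 3427 CPM in MYH7-dominant spots of sections 1 and 2. The log2 fold change of MYH7-dominant against fast spots was -1.34 (SE 0.043, adjusted p = 1.62e-103, edgeR). CASQ1 fell least, from 2802 and 2849 CPM in fast spots to 1817 and 1880 CPM in MYH7-dominant spots. Its log2 fold change was -0.62 (SE 0.048, adjusted p = 2.29e-29, edgeR). The values of a single section stayed close to these, with ATP2A1 at -1.75 and -1.75, ATP2A2 at 2.34 and 2.40, SLN at -1.34 and -1.33 and CASQ1 at -0.57 and -0.63 in sections 1 and 2.

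All 4 genes passed the test between MYH7-dominant and fast spots, where 30.4% of the 4216 genes tested did. In the direction of ATP2A2, 15.9% of genes were called higher, and in that of the other 3, 14.4% were called lower. The median log2 fold change over the 4 genes was -0.98, and over all genes tested it was -0.0089. These directions hold relative to the total UMIs of a class. Scaled by the number of spots instead, the median of all genes rose by 1.47 on the log2 scale, ATP2A1 stood at -0.28, ATP2A2 at 3.86, and SLN and CASQ1 turned positive at 0.14 and 0.87. Relative to that median the 4 values were -1.74, 2.39, -1.33 and -0.60. A mean MYH7-dominant spot thus held 8.99 SLN UMIs in section 1 and 12.1 in section 2, against 8.16 and 10.6 in a mean fast spot.

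Depth changed along the myosin share, and so did RNA of matrix, fat and macrophage markers. The median depth was 2961 and 3598 UMIs in MYH7-dominant spots of sections 1 and 2 and 764 and 990 in fast spots. Of the 14 fibroblast and matrix markers 11 were tested, and 10 of them were lower in MYH7-dominant spots. Their summed level was 1373 and 1310 CPM there against 2941 and 2394 CPM in fast spots, and none of the 14 was at 0 in the files. Of the adipocyte markers 4 of 5 tested were lower (sums of 465.1 and 420.6 CPM against 822.6 and 620.9 CPM, LEP at 0), and of the macrophage markers 3 of 4 (96.5 and 88.0 CPM against 220.1 and 195.8 CPM, LYZ at 0). Of 8 smooth muscle and pericyte markers 3 were lower and 1 was higher, with sums of 393.5 and 403.4 CPM against 450.2 and 410.1 CPM. The part of the adipocyte, macrophage and smooth muscle RNA in the results was not tested. Among spots of interquartile depth the log2 fold changes were -1.29 for ATP2A1, 2.23 for ATP2A2, -1.06 for SLN and -0.58 for CASQ1. Without the 20% of spots richest in matrix markers they were -1.88, 2.35, -1.48 and -0.71.

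**Figure D1:**
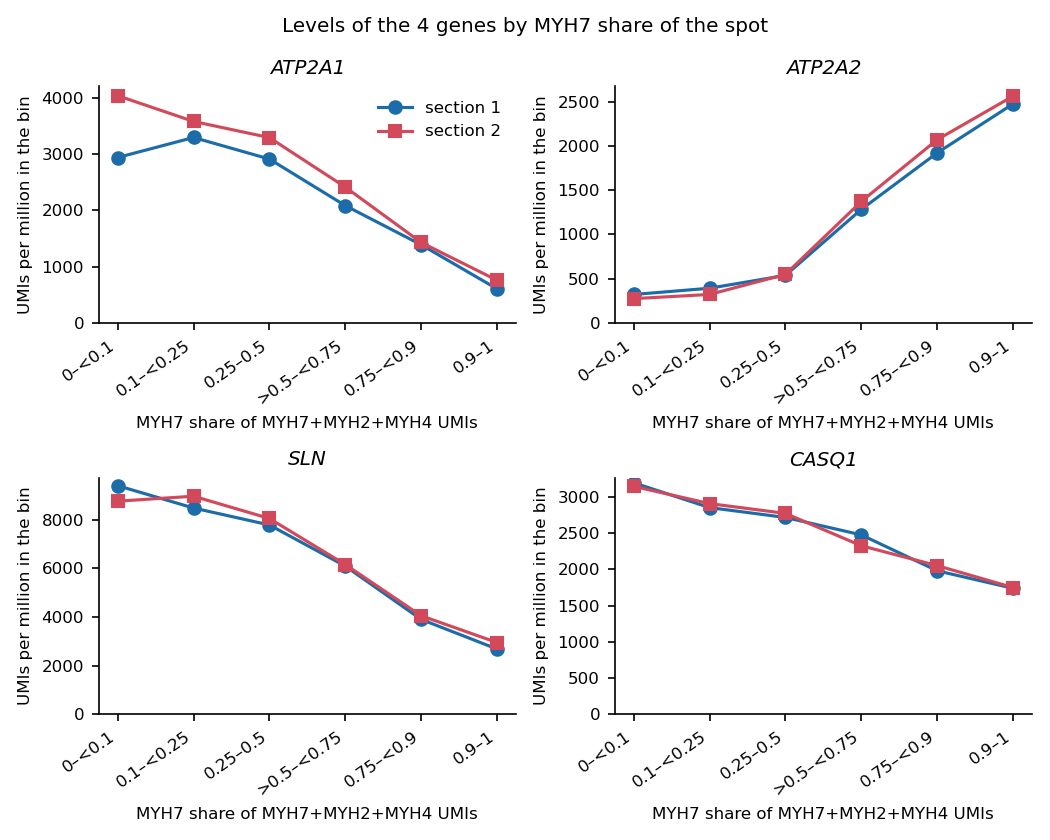
Level of each gene in CPM (y axis) over the summed spots of 6 bins of MYH7 share (x axis), with 1 line per section and no error bars. ATP2A2 rose from 321.6 and 274.7 in the lowest bin to 2473 and 2561 in the highest, and the other 3 genes were lowest in the highest bin of both sections.

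Division of the spots into 6 bins of MYH7 share showed in which bins each gene moved. The bins were not equally wide, so the size of a step depends in part on where the edges lay. ATP2A1 read 2939, 3295, 2912, 2085, 1389 and 606.1 CPM from the lowest to the highest bin in section 1. In section 2 it read 4038, 3580, 3293, 2414, 1430 and 758.0 CPM. The sections differed most in the lowest bin, which held 154 and 200 spots. ATP2A2 read 321.6, 392.1, 536.8, 1282, 1920 and 2473 CPM in section 1. In section 2 it read 274.7, 322.0, 548.1, 1372, 2069 and 2561 CPM, so that both sections kept the same order. SLN read 9393, 8476, 7780, 6092, 3903 and 2687 CPM in section 1, and 8756, 8960, 8046, 6156, 4053 and 2954 CPM in section 2. CASQ1 declined by smaller amounts, with 3194, 2852, 2716, 2476, 1981 and 1739 CPM in section 1 and 3145, 2907, 2772, 2326, 2052 and 1750 CPM in section 2.

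Each bin was tested against the one below it with the section as a covariate. Between shares under 0.1 and shares of 0.1 to under 0.25, none of the 4 genes was called by edgeR at an adjusted p under 0.05, and none had an unadjusted p under 0.05 (DESeq2 also called 0 of 4). In that step 0.231% of the 4768 genes tested were called. The 154 and 200 spots of the lowest bin summed to 38 and 66 MYH7, 877 and 1421 MYH2 and 420 and 492 MYH4 UMIs. With so few per spot, counting error can place a spot in the neighbouring bin, and its part in this step was not tested. Scaled by the number of spots, all 4 were called higher in this step, with ATP2A1 at 0.57, ATP2A2 at 0.85, SLN at 0.54 and CASQ1 at 0.46. Median depth rose over this step, from 496 to 666 UMIs in section 1 and from 614.5 to 931 in section 2. For this and the later steps the share of all genes called on that scale is not given. Calls on it are thus not set against a background and are not read as particular to the 4 genes. In the main fit, 1.49% of genes were called from shares of 0.1 to under 0.25 to shares of 0.25 to 0.5. There ATP2A2 rose by 0.56 on the log2 scale (adjusted p = 0.00021, edgeR) and SLN and ATP2A1 fell by 0.23 and 0.24. CASQ1 did not pass (-0.16, adjusted p = 0.27). In the step across a share of 0.5 (4.15% called) all 4 genes passed, with ATP2A2 at 1.21 (SE 0.081), ATP2A1 at -0.55 (SE 0.064), SLN at -0.45 (SE 0.053) and CASQ1 at -0.28 (SE 0.062). This was the largest of the 5 steps for ATP2A2, between bins of unequal width. With at least 10 myosin UMIs per spot CASQ1 did not pass it (-0.23, adjusted p = 0.0648, edgeR). Scaled by the number of spots ATP2A1 did not pass (0.14, adjusted p = 0.168), and SLN and CASQ1 were called in the other direction (0.23 and 0.41).

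The next step, to shares of 0.75 to under 0.9 (4.78% called), moved ATP2A2 by 0.68, ATP2A1 by -0.59 and SLN by -0.53, each past the test. The last step, to shares of 0.9 or more (2.03% called), held the largest fitted change of ATP2A1, -0.99 (SE 0.068, adjusted p = 1.43e-29, edgeR). ATP2A2 rose by 0.39 and SLN fell by 0.44 in the same step. CASQ1 passed in neither of these steps (-0.15 in each, adjusted p = 0.18 and 0.25). Without the 20% of spots richest in matrix markers it passed in both (-0.26 and -0.19, adjusted p = 0.00179 and 0.0474, edgeR), and scaled by the number of spots it passed upwards in the first of them (0.24, adjusted p = 0.0188). On that scale ATP2A1 and SLN did not pass in the first of them (-0.18 and -0.13, adjusted p = 0.113 and 0.208). In 13 of the 20 combinations of gene and step the test was passed. DESeq2 did not call ATP2A1 in the step to shares of 0.25 to 0.5 (adjusted p = 0.0723) and called CASQ1 in the last step (adjusted p = 0.0386). Among spots of interquartile depth the step to shares of 0.25 to 0.5 was lost for SLN and ATP2A1 (adjusted p = 0.12 and 0.50) and kept for ATP2A2 (adjusted p = 0.0022). Both were also lost without the matrix-rich spots (-0.13 for SLN and -0.19 for ATP2A1, adjusted p = 0.282 and 0.154) and without the section covariate (adjusted p = 0.0956 and 0.195). ATP2A1 was lost there with at least 10 myosin UMIs (adjusted p = 0.0739) and without the filter on low counts (adjusted p = 0.0681) too, and scaled by the number of spots both were called higher (0.34 and 0.33). The call of ATP2A2 in this step was kept under all 10 alternatives.

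The make-up of pump RNA changed more than its sum relative to all UMIs. ATP2A1 and ATP2A2 together read 3497 and 3902 CPM in fast spots of sections 1 and 2 and 3153 and 3397 CPM in MYH7-dominant spots, lower in both sections, a difference that was not tested. Per spot the sum was higher in MYH7-dominant spots, with 9.21 and 11.99 pump UMIs in a mean spot against 3.51 and 4.92 in a mean fast spot. ATP2A2 made up 13.6% of pump UMIs in fast spots of section 1 (exact binomial 95% interval 12.4 to 14.8) and 11.5% in those of section 2 (10.8 to 12.3). In mixed spots it made up 38.1% (35.5 to 40.7) and 36.2% (34.4 to 38.1). In MYH7-dominant spots it made up 72.8% (71.7 to 73.9) and 69.2% (68.3 to 70.1). The classes stood far apart in both sections. MYH7-dominant spots exceeded fast spots by 58.4 ± 1.14 percentage points (SD, n = 2 sections). An exact paired test over 2 sections cannot go below p = 0.5, so none is given. Intervals cover counting error only.

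**Figure D2:**
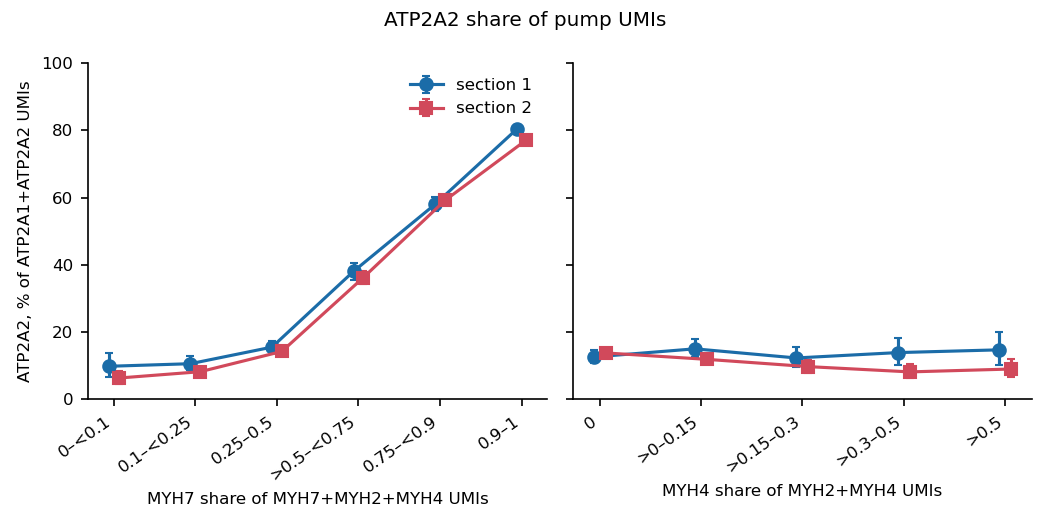
ATP2A2 as a percentage of ATP2A1 and ATP2A2 UMIs (y axis) in bins of MYH7 share (left) and, among fast spots with at least 5 MYH2 and MYH4 UMIs, in bins of MYH4 share (right). Points are sections and bars are exact binomial 95% intervals. The share reached 80.3% and 77.2% in the highest MYH7 bin, and in no MYH4 bin did it exceed 15.1%.

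By bin of MYH7 share, ATP2A2 made up 9.86%, 10.6%, 15.6%, 38.1%, 58.0% and 80.3% of pump UMIs in section 1. In section 2 the shares were 6.37%, 8.25%, 14.3%, 36.2%, 59.1% and 77.2%. ATP2A2 was thus the smaller part of pump UMIs where MYH7 made up 0.5 to 0.75 of myosin UMIs, and passed 50% in the bin above. At the ends of the gradient, spots with at least 10 myosin UMIs and all of them MYH7 (35 and 31 spots) had ATP2A2 shares of 82.6% (76.8 to 87.5) and 83.5% (78.4 to 87.9). Spots with as many and no MYH7 (14 and 28 spots) had shares of 12.1% (3.40 to 28.2) and 3.37% (0.701 to 9.54), from 33 and 89 pump UMIs. ATP2A1 was detectable in spots where all myosin UMIs were MYH7, with 36 and 42 UMIs.

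Single spots mixed the pumps in the same way. Among MYH7-dominant spots with at least 5 pump UMIs, 591 in section 1 and 731 in section 2, both pumps were seen in 89.2% and 95.1%, ATP2A2 alone in 10.3% and 4.38% and ATP2A1 alone in 0.508% and 0.547%. Among fast spots with at least 5 pump UMIs, 259 and 595, ATP2A1 alone was seen in 38.2% and 42.0% and both in 61.8% and 57.8%. This minimum kept 591 of 731 and 731 of 821 MYH7-dominant spots but 259 of 897 and 595 of 1324 fast spots. A mean spot of the whole class held 9.21 and 11.99 pump UMIs against 3.51 and 4.92. Both pumps are seen more readily with more pump UMIs, and the part of depth in these percentages was not tested. ATP2A2 alone was seen in 0.168% of fast spots of section 2 and in 0 of 259 of section 1. The median spot had an ATP2A2 share of 75.0% and 71.4% among MYH7-dominant, 40.0% and 33.3% among mixed and 12.5% and 10.0% among fast spots. Among mixed spots the quartiles were 20% and 50% in both sections. A mean spot of the whole mixed class held 6.357 and 8.742 pump UMIs, so counting error widens these quartiles. Spread in the share beyond counting error was not tested.

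The spread among spots of a class was also set against counting error for each gene. A ratio of 1 between the variance of counts and that expected from counting at the spot's depth would mean no spread beyond counting. Among MYH7-dominant spots the ratio was 2.17 and 2.22 for ATP2A1 and 2.197 and 2.255 for SLN in sections 1 and 2. It was 1.48 and 1.47 for ATP2A2 and 1.27 and 1.38 for CASQ1. Among fast spots it was 1.64 and 1.57 for SLN, 1.23 and 1.35 for ATP2A1 and 1.07 and 0.963 for ATP2A2. Where MYH7 dominates the ratio was thus highest for ATP2A1 and SLN. Any spread beyond counting raises this ratio more for a gene with more UMIs per spot. A mean MYH7-dominant spot held 8.986 and 12.1 SLN UMIs and 2.503 and 3.697 ATP2A1 UMIs. For ATP2A2 it held 6.705 and 8.294, and for CASQ1 5.305 and 6.637. ATP2A1 had the fewest UMIs of these genes and still a ratio above those of ATP2A2 and CASQ1. Its level also fell inside this class, from 1389 and 1430 CPM at shares of 0.75 to under 0.9 to 606.1 and 758.0 CPM at 0.9 or more. The part of this fall in its ratio was not tested. As a whole the ratios do not rank the genes or classes by unevenness, and are a description with no test.

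SLN per pump UMI was set by its own fit, in which pump UMIs replaced the library size. SLN gave 2.33 and 2.15 UMIs per pump UMI in fast spots of sections 1 and 2, 1.81 and 1.63 in mixed spots and 0.976 and 1.01 in MYH7-dominant spots. The mean was 2.24 ± 0.122 in fast against 0.992 ± 0.0234 in MYH7-dominant spots (SD, n = 2 sections). The log2 fold change of the ratio was -1.18 (SE 0.047, adjusted p = 2.12e-135, edgeR), or 2.26-fold lower, and the values of the sections were -1.26 and -1.10. In this fit 31.8% of genes were called and the median gene stood at 0.17. CASQ1 gave 0.801 and 0.730 UMIs per pump UMI in fast and 0.576 and 0.553 in MYH7-dominant spots, a log2 fold change of -0.45 (SE 0.053, adjusted p = 3.22e-16, edgeR).

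**Figure D3:**
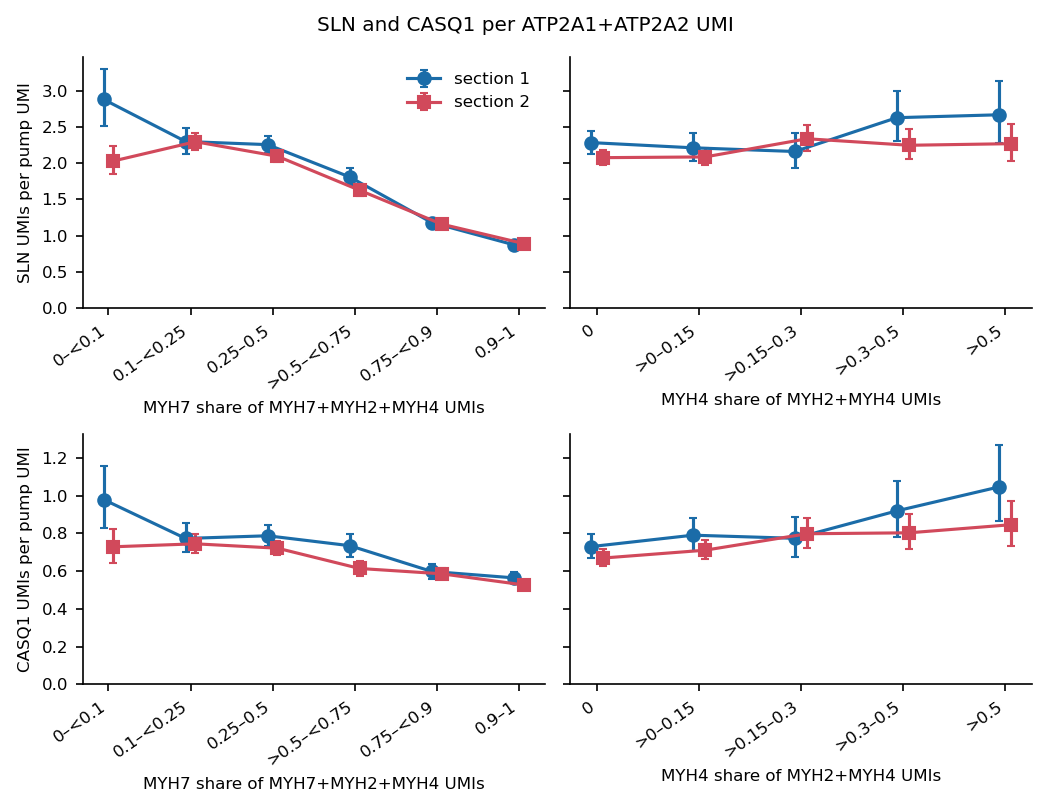
SLN UMIs (top) and CASQ1 UMIs (bottom) per ATP2A1 and ATP2A2 UMI (y axes) in bins of MYH7 share (left) and, among fast spots with at least 5 MYH2 and MYH4 UMIs, of MYH4 share (right). Points are sections and bars are 95% intervals of the ratio from counting error. In section 1 SLN per pump UMI went from 2.88 to 0.873 along the MYH7 bins and in section 2 from 2.03 to 0.890.

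By bin of MYH7 share, SLN per pump UMI was 2.88, 2.30, 2.26, 1.81, 1.18 and 0.873 in section 1 and 2.03, 2.30, 2.10, 1.63, 1.16 and 0.890 in section 2. The sections went apart in the lowest bin, where the interval was 2.52 to 3.301 in section 1 and 1.84 to 2.24 in section 2, and were close from the bin above it on. Set against ATP2A1 alone, the ratio took another course. SLN per ATP2A1 UMI was 3.20, 2.57, 2.67, 2.92, 2.81 and 4.43 in section 1 and 2.17, 2.50, 2.44, 2.55, 2.84 and 3.90 in section 2. SLN and ATP2A1 thus kept to a ratio between 2.17 and 3.20 up to an MYH7 share of 0.9, and above it ATP2A1 was lower still for its SLN. This ratio was chosen after the values were seen and has no test.

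**Figure D4:**
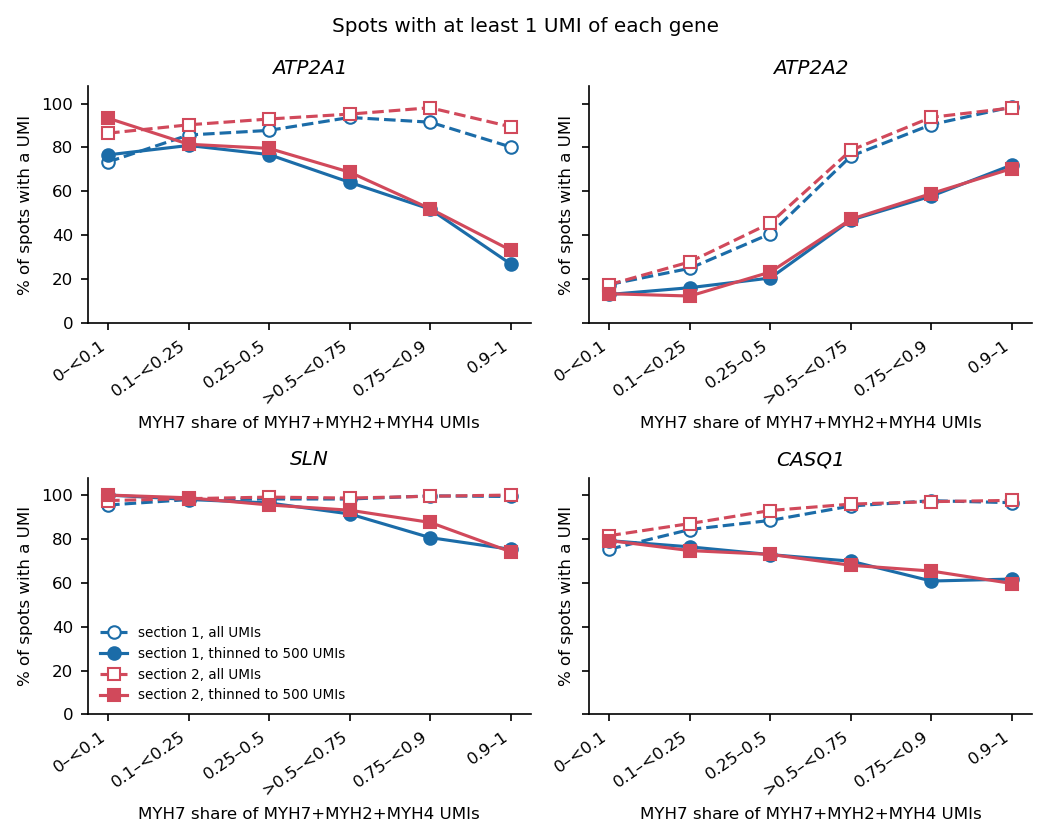
Percentage of spots with at least 1 UMI of each gene (y axis) in the bins of MYH7 share (x axis), with all UMIs (open symbols) and after thinning each spot to 500 UMIs (filled symbols). With thinning, the share of spots with ATP2A1 ended at 26.9% and 33.2% in the highest bin, against 80.2% and 89.4% with all UMIs.

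Shares of spots with a UMI depend on depth, which rose with the MYH7 share. With all UMIs, ATP2A1 was seen in 73.4% and 86.5% of spots in the lowest MYH7 bin of sections 1 and 2 and in 80.2% and 89.4% in the highest. Thinned to 500 UMIs, the shares were 76.6% and 93.3% in the lowest and 26.9% and 33.2% in the highest bin. ATP2A2 kept its direction when thinned, from 13.0% and 13.3% to 72.0% and 70.4%. SLN went from 100% and 100% of thinned spots in the lowest bin to 75.3% and 74.2% in the highest, and CASQ1 from 79.2% and 79.3% to 61.7% and 59.7%. Thinning left out 77 and 65 spots of the lowest and 3 and 5 of the highest bin as too shallow.

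Within fast spots the second axis was MYH4 as a share of its sum with MYH2. MYH4-rich spots (the upper tertile, 300 and 489 spots in sections 1 and 2) were set against MYH4-poor spots, which held no MYH4 UMI (391 and 508 spots). The upper tertile began at an MYH4 share of 0.214 in section 1 and 0.2 in section 2. In MYH4-rich spots MYH2 still read above MYH4, at 6158 and 6155 CPM against 5361 and 4383 CPM. A spot with no MYH4 UMI can still hold MYH4 RNA that was not captured. The contrast is thus of detected MYH4 and not of IIB against IIA fibres. CASQ1 read 2650 and 2686 CPM in MYH4-poor and 3204 and 3122 CPM in MYH4-rich spots, higher in both sections, with a log2 fold change of 0.27 (SE 0.064, adjusted p = 0.00347, edgeR). ATP2A2 read 465.2 and 534.8 CPM in MYH4-poor and 422.6 and 332.5 CPM in MYH4-rich spots, a log2 fold change of -0.44 (SE 0.118, adjusted p = 0.0127, edgeR). The change of ATP2A2 was uneven, at -0.13 in section 1 and -0.65 in section 2, and rests on 105 and 165 UMIs in MYH4-rich spots. In this comparison 2.40% of genes were called, 2 of the 4 members among them.

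The other pair did not pass. ATP2A1 read 3129 and 3434 CPM in MYH4-poor and 2902 and 3517 CPM in MYH4-rich spots, with a log2 fold change of -0.0019 (95% interval -0.13 to 0.12, adjusted p = 0.995, edgeR). SLN read 8314 and 8264 CPM and 8456 and 8821 CPM, with a log2 fold change of 0.086 (95% interval -0.014 to 0.19, adjusted p = 0.576, edgeR). Over the 4 genes the median log2 fold change was 0.042, and over all genes 0.0038. With the number of spots as the scale, where the median gene fell by 0.24, CASQ1 read 0.034 and was not called, SLN read -0.15 and ATP2A1 passed at -0.24.

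Per pump UMI, CASQ1 gave 0.737 and 0.677 in MYH4-poor and 0.964 and 0.811 in MYH4-rich spots, a log2 fold change of 0.32 (SE 0.069, adjusted p = 5.83e-04, edgeR) in a fit that called 2.44% of genes. SLN per pump UMI was 2.31 and 2.08 in MYH4-poor and 2.54 and 2.29 in MYH4-rich spots and did not pass (0.14, 95% interval 0.028 to 0.25, adjusted p = 0.253, edgeR). ATP2A2 made up 12.9% and 13.5% of pump UMIs in MYH4-poor and 12.7% and 8.64% in MYH4-rich spots, and the intervals overlapped in section 1 (11.2 to 14.9 and 10.5 to 15.2). Median depth was 791 and 921.5 UMIs in MYH4-poor and 599.5 and 799 UMIs in MYH4-rich spots. Fast spots between these classes were deepest, at 1079.5 and 1549 UMIs. The part of depth in these values was not tested apart from the fit at interquartile depth, where CASQ1 was called (adjusted p = 0.00417) and ATP2A2 was not (adjusted p = 0.078). ATP2A2 was no longer called with at least 10 myosin UMIs per spot (adjusted p = 0.0585) or without the 20% of spots richest in matrix markers (adjusted p = 0.162), and CASQ1 was not called with at least 10 myosin UMIs (adjusted p = 0.0571) but was without the matrix-rich spots (adjusted p = 0.000973). Of the 11 matrix markers tested, 3 were higher in MYH4-rich spots, with sums of 2544 and 2106 CPM in MYH4-poor and 3357 and 2608 CPM in MYH4-rich spots. Of the fast fibre markers 3 of 7 were higher, and of the adipocyte and macrophage markers 1 each. The macrophage sum was 152.4 and 160.6 CPM in MYH4-poor and 326.0 and 221.7 CPM in MYH4-rich spots, and the adipocyte sum 680.2 and 523.2 CPM and 1022 and 646.9 CPM. The slow fibre sum was 12440 and 11970 CPM in MYH4-poor and 11270 and 10600 CPM in MYH4-rich spots, and MYH7 read 3760 and 3720 CPM and 3341 and 3275 CPM. The part of these markers in the values of ATP2A2 and CASQ1 was not tested.

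Fast spots with at least 5 UMIs of MYH2 and MYH4 together were also put in 5 bins of MYH4 share, from 0 (300 and 432 spots) to over 0.5 (91 and 125 spots). CASQ1 read 2623, 2676, 2909, 3078 and 3217 CPM in section 1 and 2656, 2763, 2968, 3161 and 3325 CPM in section 2, the same order in both. ATP2A1 read between 2621 and 3294 CPM in section 1 and between 3355 and 3613 CPM in section 2, with no common order. ATP2A2 read 453.7, 509.3, 463.9, 466.4 and 453.4 CPM in section 1 and 548.6, 463.2, 362.9, 322.6 and 355.7 CPM in section 2, so its decline stood in section 2. SLN read between 7486 and 8800 CPM in section 1 and between 8105 and 8918 CPM in section 2.

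Other regulators of the pumps were few among the genes with a symbol. PLN, MRLN, STRIT1 and ERLN, which encode phospholamban and its relatives among small pump-binding peptides, matched no symbol and were not analysed here. S100A1, a calcium sensor that raises pump and release channel activity, was the pump regulator called. It had 3294 and 4476 UMIs and read 1062 ± 56.9 CPM in MYH7-dominant and 576.2 ± 43.5 CPM in fast spots (SD, n = 2 sections). Its log2 fold change was 0.93 (adjusted p = 1.53e-36, edgeR), and it was lower in MYH4-rich spots (-0.47, adjusted p = 0.00304). HRC, a calcium-binding protein of the store, had 488 and 738 UMIs and did not pass (0.22, adjusted p = 0.156), nor did THBS4, a secreted protein (239 and 433 UMIs, -0.21, adjusted p = 0.363). None of the 3 tested members of the other calcium pumps was called by edgeR. The plasma membrane pumps ATP2B1 and ATP2B4 stood at -0.27 and -0.16 and the Golgi pump ATP2C1 at -0.42. None of the 3 had an unadjusted p under 0.05, and DESeq2 also called 0.

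**Figure D5:**
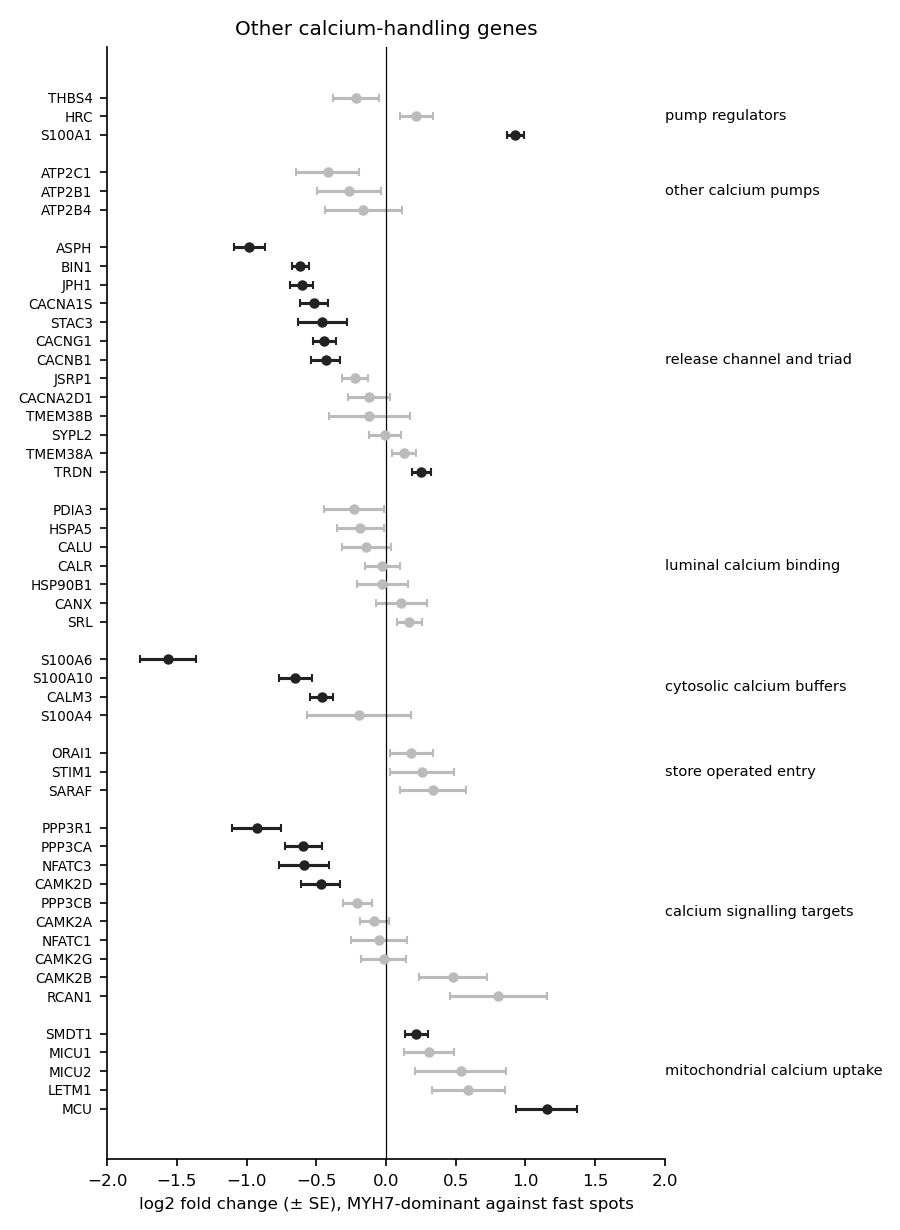
Log2 fold change of MYH7-dominant against fast spots (x axis, bars ± SE from edgeR) for each tested gene of 8 calcium-handling lists (y axis). Black points have an adjusted p under 0.05 and grey points do not. In the list of the release channel and triad 7 of 13 genes are black and left of 0, and TRDN is black and right of 0.

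Calcium release moves through the triad, where the voltage sensor of the surface membrane meets the store. Of the 17 genes of this list with a symbol 13 were tested, 7 were lower and 1 was higher in MYH7-dominant spots, where 14.4% of all genes tested were lower and 15.9% higher. BIN1, which shapes the membrane tubules, stood at -0.61, and ASPH, whose locus also encodes junctin, at -0.98. JPH1, which ties the membranes of the triad together, stood at -0.60 and CACNG1, a subunit of the voltage sensor, at -0.44. TRDN, which encodes the calsequestrin anchor triadin, was the higher one at 0.25 (adjusted p = 0.0012, edgeR), against the direction of CASQ1, but DESeq2 did not call it and called 5 genes of the list lower and 0 higher. Over all genes DESeq2 called 629 in either direction, against 1280 by edgeR, and the shares of all genes given here are those of edgeR. RYR1, the release channel itself, matched no symbol and was not analysed here. BIN1 was also higher in MYH4-rich spots (0.34, adjusted p = 0.0127, edgeR).

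Of the calcium-binding proteins inside the store, 7 of 10 were tested and edgeR called 0, with 0 at an unadjusted p under 0.05 and 0 called by DESeq2. SRL, which encodes sarcalumenin, stood at 0.17 (adjusted p = 0.142). CASQ2, the calsequestrin of slow and heart muscle, had 47 and 71 UMIs, was too low for the test and read 17.9 ± 0.101 CPM in MYH7-dominant and 4.92 ± 0.667 CPM in fast spots (SD, n = 2 sections). Of the cytosolic calcium-binding genes 4 of 6 were tested and 3 were lower in MYH7-dominant spots (14.4% of all genes). CALM3 stood at -0.46. S100A6 stood at -1.57 and S100A10 at -0.65, and S100A4 did not pass (-0.20, adjusted p = 0.749, edgeR). S100A6 and S100A10 are also made by cells of connective tissue, and the S100A10 protein does not itself bind calcium. PVALB, the parvalbumin buffer of fast fibres in rodents, had 11 and 15 UMIs.

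Targets of calcium signals were 4 lower and 0 higher of 10 tested by edgeR, against 14.4% and 15.9% of all genes. The calcineurin subunits PPP3R1 and PPP3CA stood at -0.93 and -0.59, the kinase gene CAMK2D at -0.47 and NFATC3, a factor that calcineurin activates, at -0.59. DESeq2, which called 629 genes in all against 1280 by edgeR, called 2 of the 10 lower. Store-operated entry genes gave 0 calls of 3 tested by edgeR and by DESeq2, with 0 at an unadjusted p under 0.05, and STIM1, the calcium sensor of the store, stood at 0.26. Of the genes of mitochondrial calcium uptake, 2 of 5 tested were higher in MYH7-dominant spots (15.9% of all genes): the channel gene MCU (1.15, SE 0.220) and SMDT1 (0.22), a subunit of the same channel. DESeq2 called 1 of the 5. Scaled by the number of spots, every tested gene of these lists except 1 of the cytosolic list was called higher, so the directions given here are relative to total UMIs. The medians of the 8 lists ran from -0.56 for the cytosolic calcium-binding genes to 0.54 for mitochondrial calcium uptake, against -0.0089 for all genes tested.

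The genes whose levels went most like each member over the 12 sums of MYH7 bin and section were taken among 816 genes with at least 300 UMIs per section. For ATP2A1 they were TNNI2, TNNC2, PKM, TPM1 and TNNT3, with Pearson's r of log2(CPM + 1), centred per section, from 0.995 to 0.992. For ATP2A2 they were MYOT, TNNI1, TNNT1, MYL2 and COX1, from 0.999 to 0.995. SLN went most like MYL1, ACTN3, PGAM2, MYLPF and TPI1, from 0.998 to 0.996. CASQ1 went most like ALDOA, ENO3, GAPDH, PFKM and AK1, from 0.994 to 0.993. The 12 points share 2 libraries and the order of the bins, so such values are a description.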

How the data were processed

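Spatial RNA was measured in 2 sections of pig psoas major. The deposited counts are UMI counts per gene and spot, which the authors made with Space Ranger 1.1 on a custom Sscrofa11.1 reference without the Y chromosome and with older MYH2 and MYH4 models added. The labels name another Ensembl release than the methods. Per the labels, fragmented porcine RNA was added as a carrier at about 25% of each library. It is of the same species, and its part in the counts was not tested. The authors also removed spots by hand, and that list was not used here. The deposited counts hold 2487 and 2939 spots, more than the paper lists for the replicate of the same number. The spots kept here, 2429 and 2878, also exceed that list, so they include spots the authors left out. Genes without a symbol numbered 15086, of which 796 were named from a reference table.

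Spots above 25% mitochondrial UMIs (8 and 2) and then the 2% with fewest UMIs were left out. Counts were summed per section and class (10 sums) or bin (12 sums), since spots are not replicates. The sums were tested in edgeR 4.0.16 (R 4.3.3) with TMM scaling, a minimum count of 10, the section as a covariate and Benjamini-Hochberg adjustment at 0.05. For ratios, pump UMIs replaced the library size. The test was checked on simulated data with known changes. The fits had 4 (classes) and 5 (bins) residual degrees of freedom against prior degrees of freedom of 363.6 and 175.1, and without limit per pump UMI, so p-values rest almost wholly on a spread pooled over genes. The samples are 2 sections on 1 slide. Binomial and ratio intervals are at 95% and cover counting error only.

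The members and gene lists were chosen with earlier results of these data known. Genes named were the members, up to 4 tested genes per list with the smallest p, every pump regulator seen, and the 5 genes most like each member. A gene of the cytosolic list is not reported here and was left out of that list's counts. TRDN, CASQ2 and PVALB were named after their values were seen. Alternatives were a minimum of 10 myosin UMIs, class limits of 0.9 and 0.25, no filter on spots, interquartile depth, no matrix-rich spots, RLE factors, DESeq2 1.42.0, scaling by spots, no filter on low counts, totals without mitochondrial genes, no section covariate, 1 section left out, and thinning to 500 UMIs. Figures were drawn with matplotlib 3.10.9.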

Additional observations from a re-analysis of the deposited data

Results flagged for a closer look

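Spots with under 5 myosin UMIs, 580 in section 1 and 442 in section 2, entered no comparison, yet they held pump and SLN UMIs. Their median depth was 219 and 254.5 UMIs. ATP2A2 made up 8.507% of their pump UMIs in section 1 (exact binomial 95% interval 6.36 to 11.09) and 8.033% in section 2 (6.002 to 10.48), from 49 ATP2A2 UMIs in each. SLN per pump UMI was 2.323 in section 1 and 1.905 in section 2. For comparison, ATP2A2 shares were 9.864% and 6.369% in the lowest MYH7 bin and 13.57% and 11.54% in fast spots. SLN per pump UMI was 2.881 and 2.03 in that bin and 2.327 and 2.155 in fast spots. In these measures the spots with few myosin UMIs thus lay near the fast end of the spots compared. Their summed myosin UMIs were also mostly fast, with 352 MYH7, 770 MYH2 and 235 MYH4 UMIs in section 1 and 243, 652 and 198 in section 2.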

How the results depend on the processing

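The change of ATP2A2 between MYH7-dominant and fast spots kept its direction and, where tested, its call under all 13 alternatives, and so did ATP2A1. Scaled by the number of spots, SLN and CASQ1 turned to 0.1387 and 0.8656, and the genes called numbered 3967 (3938 higher, 29 lower) against 1280 (671 higher, 609 lower). At interquartile depth 629 genes were called, and by DESeq2 also 629. With 1 section left out, with no test, ATP2A1 ranged from -1.752 to -1.749 and SLN from -1.34 to -1.327. Between MYH4-rich and MYH4-poor spots, 101 genes were called, against 35 with the stricter limits, 66 at interquartile depth, 205 scaled by spots (6 higher, 199 lower) and 49 without the section covariate. ATP2A2 was no longer called at -0.402 with 10 myosin UMIs, -0.3711 with the stricter limits, -0.4073 at interquartile depth, -0.3483 without matrix-rich spots and -0.4354 without the covariate. CASQ1 was no longer called at 0.2315 with 10 myosin UMIs, 0.03433 scaled by spots, 0.2409 without the filter on low counts and 0.2689 without the covariate, nor was CASQ1 per pump UMI without the covariate (0.3245). ATP2A1 read -0.237 scaled by spots, where it was called, 0.00408 without the covariate, and -0.098 to 0.0737 with 1 section left out. SLN read -0.1463 scaled by spots. SLN per pump UMI ranged from 0.1368 to 0.1383 with 1 section left out. The difference in ATP2A2 share was 69.36 percentage points with the stricter limits and 47.71 at interquartile depth. Thinning turned the difference in spots with a UMI between the highest and lowest MYH7 bin from 4.885 to -54.93 percentage points for ATP2A1, from 3.2 to -25.29 for SLN and from 18.64 to -18.54 for CASQ1, and from 80.73 to 58.02 for ATP2A2. The causes were not tested. Of the 20 combinations of gene and neighbouring bins, 11 to 16 were called over the alternatives, against 13. The section covariate is the pairing of classes within a section.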
